A study of Mus musculus with 4 samples.

Results

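The genes described here are 8 core pluripotency factors, Pou5f1, Nanog, Sox2, Utf1, L1td1, Lin28a, Sall4 and Trim71. They were picked by symbol, with earlier results of these data known. All 8 were found, by symbol, among the 25209 genes counted in each of the 4 libraries of day 6 embryoid bodies (EBs), the aggregates that mouse embryonic stem cells (ESCs) form in hanging drops when they differentiate in serum medium without LIF or the inhibitors that hold them pluripotent. Single cells of 2 groups were profiled by droplet scRNA-seq of transcript 3′ ends with molecular identifiers (UMIs): WT V6.5 ESCs, and LSD1KO cells of the same line, in which CRISPR/Cas9 removed the promoter and first exon of the gene for the histone demethylase LSD1. Each group had 2 biological replicates of 1 library each, grown without any inducer or drug treatment, and the KO lines came from single picked clones, although which clone each library holds is not given in the sources used here. The study profiled single cells to ask how LSD1 bears on the paths that cells take as they differentiate, and the comparisons below ask where in the EB, and in which cells, the factors were still transcribed.

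In naive and primed stem cells, OCT4 (encoded by Pou5f1), SOX2 and NANOG bind regulatory elements together and hold one another and a wide set of target genes active. UTF1 and L1TD1 are products of target genes of that network. LIN28A, SALL4 and TRIM71 are also made in stem cells, but they stay on in early embryonic progenitors, where LIN28A blocks the maturation of let-7 microRNAs, SALL4 is a zinc finger factor that binds A/T-rich DNA and TRIM71 is an RNA-binding repressor and ubiquitin ligase that let-7 targets. When ESCs differentiate, Pou5f1, Nanog, Utf1 and L1td1 are normally shut off early and Lin28a, Sall4 and Trim71 later.

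All 8 genes are protein-coding. Promoters of 5 of them are shown because 4 (Nanog, Pou5f1, Utf1 and L1td1) rose together in the data below and the fifth, Sox2, did not. The sequences are RefSeq windows of 300 bases on build GRCm38.p6, from 250 bases before to 50 after the first listed start, which is another build than the mm9 of the counts. Capitals mark matches, on either strand, to the octamer core ATGCAAA bound by POU factors and to the SOX cores CATTGT and CTTTGT. The windows are chr6:122707239-122707538 for Nanog, chr3:34649745-34650044 for Sox2, chr17:35505782-35506081 for Pou5f1, chr7:139943606-139943905 for Utf1 and chr4:98726504-98726803 for L1td1, all on the plus strand.
Nanog: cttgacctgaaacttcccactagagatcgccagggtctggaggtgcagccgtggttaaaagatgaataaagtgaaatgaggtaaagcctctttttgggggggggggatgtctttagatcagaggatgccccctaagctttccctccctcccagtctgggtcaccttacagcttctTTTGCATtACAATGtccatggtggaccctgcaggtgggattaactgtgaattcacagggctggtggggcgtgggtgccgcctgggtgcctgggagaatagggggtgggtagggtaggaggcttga
Sox2: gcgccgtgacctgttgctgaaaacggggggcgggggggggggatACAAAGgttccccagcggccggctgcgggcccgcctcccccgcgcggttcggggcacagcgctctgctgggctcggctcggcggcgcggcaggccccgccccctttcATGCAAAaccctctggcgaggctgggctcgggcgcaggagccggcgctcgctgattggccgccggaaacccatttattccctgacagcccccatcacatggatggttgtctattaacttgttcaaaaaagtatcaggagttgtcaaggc
Pou5f1: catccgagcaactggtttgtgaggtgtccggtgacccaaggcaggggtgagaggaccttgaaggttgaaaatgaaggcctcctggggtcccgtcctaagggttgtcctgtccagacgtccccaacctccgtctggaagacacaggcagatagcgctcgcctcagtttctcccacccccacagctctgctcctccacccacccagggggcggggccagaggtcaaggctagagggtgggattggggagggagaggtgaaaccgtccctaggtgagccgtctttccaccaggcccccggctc
Utf1: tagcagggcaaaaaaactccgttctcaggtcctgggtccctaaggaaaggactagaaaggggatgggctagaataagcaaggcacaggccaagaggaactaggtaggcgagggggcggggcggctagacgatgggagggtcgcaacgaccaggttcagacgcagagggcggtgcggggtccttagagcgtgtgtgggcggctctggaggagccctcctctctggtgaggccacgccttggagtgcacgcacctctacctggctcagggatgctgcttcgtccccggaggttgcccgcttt
L1td1: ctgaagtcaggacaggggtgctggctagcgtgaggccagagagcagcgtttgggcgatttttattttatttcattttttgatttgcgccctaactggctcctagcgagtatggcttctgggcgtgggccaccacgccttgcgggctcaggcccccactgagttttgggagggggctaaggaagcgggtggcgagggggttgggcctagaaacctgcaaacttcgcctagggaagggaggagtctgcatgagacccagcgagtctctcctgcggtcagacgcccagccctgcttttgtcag
The Nanog window holds an octamer core 75 bases before the start and a CATTGT core 67 bases before it, both on the minus strand with 1 base between them. That arrangement was present in 2 of 32851 promoter windows of the same length (0.00609%), both of them overlapping windows of Nanog, while the octamer core was in 4.63%, CATTGT in 12.6% and CTTTGT in 18.7%. The Sox2 window holds an octamer core 99 bases before the start and a CTTTGT core on the other strand 206 bases before it. The Pou5f1, Utf1 and L1td1 windows shown hold none of these letters, while the window of a second listed Pou5f1 start, chr17:35508557-35508856, holds a CATTGT core 158 bases before that start. Promoters were found for 7 of the 8 genes, all but Sall4. A match describes the letters and is no evidence of binding.

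The libraries held 72285943 to 75406512 UMIs. A barcode counted as a cell from 500 UMIs and 500 genes upward. WT replicates 1 and 2 had 4393 and 6828 such cells and LSD1KO replicates 1 and 2 had 5693 and 3045, at medians of 11698, 9211, 11402 and 20304 UMIs per cell. Libraries shared 3 to 15 kept barcodes, at most 0.263% of the smaller library. Levels are in CPM, the UMIs of a gene per 1000000 UMIs summed. The LSD1 gene itself, Kdm1a, had 221 and 246 CPM in WT and 1.10 and 0.810 CPM in LSD1KO libraries. Its 3′ reads lie outside the deleted part, so they show loss of the transcript and not the deletion. Binomial intervals below are exact 95% intervals that cover counting error only.

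Pou5f1, Nanog, Utf1 and L1td1 were higher in LSD1KO EBs, while Sox2, Lin28a, Sall4 and Trim71 were not called in either direction. In edgeR's quasi-likelihood test on UMIs summed per library, 4 of the 8 genes passed an adjusted p of 0.05 upward and 0 downward, where 22.6% of all 16953 genes tested were called higher and 21.6% lower. Of these 8 genes, the count called lower was also 0 at an unadjusted p under 0.05 and with DESeq2. CPM values of whole EBs are scaled with TMM factors. Fewer cells that transcribe a gene and less RNA per cell cannot be told apart in these sums, which is why the genes are followed into cells further on.

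Pou5f1 encodes the POU factor OCT4 and lies on mm9 chromosome 17 from 35642982 to 35647721, plus strand. It was at 4.56 and 12.5 CPM in WT replicates 1 and 2 and at 99.4 and 101 CPM in LSD1KO replicates 1 and 2. The groups did not overlap, and the 2 KO libraries were close while the WT libraries were not. The log2 fold change was 3.56 (SE 0.45, adjusted p = 0.00324, edgeR's quasi-likelihood test), and became 3.01 with WT replicate 1 left out or 4.46 with WT replicate 2 left out.

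Nanog, a homeobox factor of the same network (chromosome 6, 122657507 to 122664651, plus strand), was at 3.10 and 11.5 CPM in WT and at 58.8 and 73.3 CPM in LSD1KO libraries. Its log2 fold change was 3.17 (SE 0.58, adjusted p = 0.00900, edgeR), or 2.52 with WT replicate 1 left out and 4.41 with WT replicate 2 left out. The lowest KO library was thus above the highest WT library. Sox2, the HMG-box partner of OCT4 (chromosome 3, 34548927 to 34551383, plus strand), behaved differently. Its level was 18.9 and 37.9 CPM in WT against 23.2 and 50.2 CPM in LSD1KO libraries. These ranges overlap, and the log2 fold change of 0.37 (SE 0.45, adjusted p = 0.536) did not pass the test. It ranged from -0.29 to 0.96 on leaving out single libraries, and a fit with the replicate number as a block called it at 0.35 (adjusted p = 0.0290). The gene lies inside the span of the long non-coding gene Sox2ot, on the same strand, and reads of the overlap cannot be told apart. UMIs assigned to Sox2ot were 69, 97, 154 and 239, and those assigned to Sox2 were 1177, 2417, 1642 and 3286. Both are given for WT replicates 1 and 2 and LSD1KO replicates 1 and 2. These counts do not measure reads of the shared stretch, and its part in the Sox2 values was not tested.

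Utf1, a chromatin-bound factor made in undifferentiated ESCs (chromosome 7, 147129688 to 147131011, plus strand), was at 9.05 and 24.8 CPM in WT and at 88.4 and 166 CPM in LSD1KO libraries. Its log2 fold change was 2.91 (SE 0.54, adjusted p = 0.00964), with 2.36 to 3.82 on leaving out WT replicate 1 or WT replicate 2. L1td1, an RNA-binding protein derived from a LINE-1 open reading frame (chromosome 4, 98393425 to 98405171, plus strand), rose most of the 8. It was at 11.6 and 24.1 CPM in WT and at 278 and 333 CPM in LSD1KO libraries, with a log2 fold change of 4.09 (SE 0.37, adjusted p = 0.00123). Neither gene overlapped between groups. For all of these 4 genes WT replicate 2 stood above WT replicate 1, and leaving out either WT library moved the fold change in opposite directions while the call stayed.

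The RNA-binding and zinc finger members did not pass the test in either direction. Lin28a (chromosome 4, 133559245 to 133574756, minus strand) was at 151 and 154 CPM in WT and at 134 and 137 CPM in LSD1KO libraries. The groups did not overlap, but the log2 fold change of -0.17 (SE 0.08, adjusted p = 0.141) did not pass the test. Sall4 (chromosome 2, 168573832 to 168593443, minus strand) was at 121 and 136 CPM against 123 and 127 CPM, a log2 fold change of -0.04 (SE 0.09, adjusted p = 0.758) that turned to 0.095 when library totals were used without TMM factors. Trim71 (chromosome 9, 114420393 to 114473487, minus strand) was at 156 and 80.3 CPM in WT and at 70.1 and 101 CPM in LSD1KO libraries. The KO values lay on both sides of WT replicate 2. The log2 fold change of Trim71 was -0.47 (SE 0.34, adjusted p = 0.296), which became 0.091 when WT replicate 1 was left out and -0.87 (adjusted p = 0.0344) when WT replicate 2 was, so its direction rested on WT replicate 1.

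**Figure D1:**
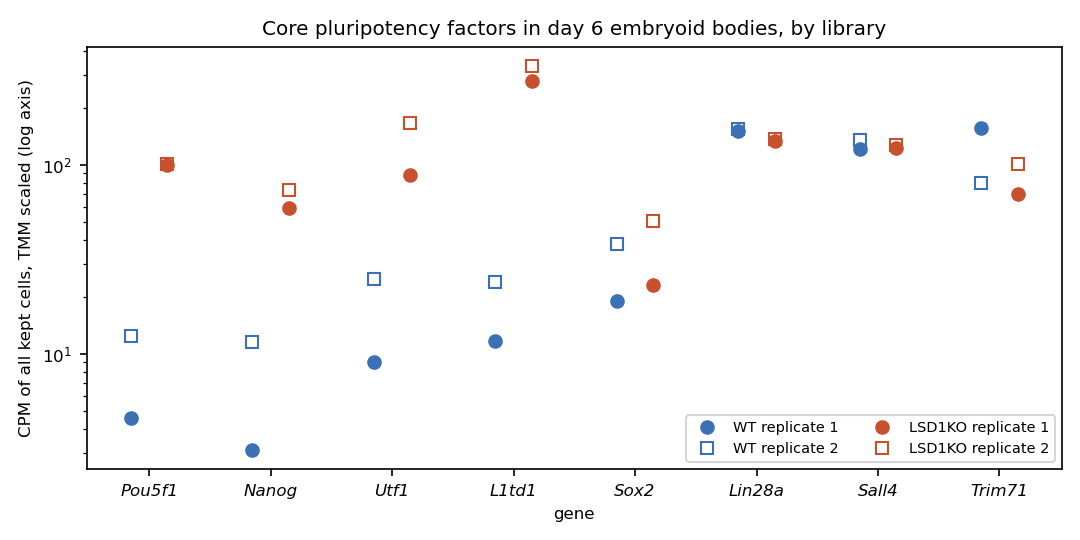
Level of each gene in the summed kept cells of each library, as TMM-scaled CPM on a log axis; blue points are WT and red points LSD1KO libraries, filled for replicate 1 and open for replicate 2. Pou5f1, Nanog, Utf1 and L1td1 of both LSD1KO libraries lie above both WT libraries, and the other genes overlap or, for Lin28a, lie close together.

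Other genes of the same network give the setting. Of 24 listed partners and targets of the core factors, all tested, 11 were higher in LSD1KO EBs and 0 lower in edgeR's test (3 lower at an unadjusted p under 0.05, namely Klf4, Otx2 and Ncoa3), with a median log2 fold change of 0.83 beside -0.00088 over all genes tested. Over all genes tested, 22.6% were called higher and 21.6% lower. The 6 with the largest calls in the list were Tdgf1 (a co-receptor for NODAL, log2 fold change 4.93), Foxd3 (a forkhead factor of ESCs and neural crest, 4.29), Dppa2 (4.07), Gdf3 (a TGF-beta family ligand, 3.68), Dppa4 (2.74), which with DPPA2 forms a chromatin-binding pair, and Fgf4 (the autocrine FGF ligand of ESCs, 2.60). Several ESC-like gate genes used below (Tdgf1, Gdf3, Dppa2, Dppa4, Fgf4 and Zfp42) are in this list too.

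Of 12 genes of the let-7 and RNA-binding pathway around Lin28a and Trim71, all tested, 1 was higher and 6 were lower in LSD1KO EBs. This stands beside 22.6% higher and 21.6% lower over all genes tested. The median log2 fold change of the list was -0.32. The 6 with the largest calls were Hmga2, a let-7 target that encodes a chromatin protein, at -1.23, Lin28b at 0.89, Tut4, which uridylates let-7 precursors with LIN28, at -0.87, Dicer1 at -0.53, Igf2bp2 at -0.43 and Igf2bp3 at -0.41. Lin28b, the paralog of Lin28a, thus rose from 82.5 and 88.6 CPM to 154 and 162 CPM (adjusted p = 0.00163) while Lin28a was not called. The difference between the 2 paralogs was not tested.

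Other paralogs of the members were also listed, 13 in all, of which 7 were higher and 2 lower, beside 22.6% and 21.6% of all genes tested. Their median log2 fold change was 0.89. Among the POU and SOX genes, Sox3 rose by 3.0 and Pou3f1 by 2.51 on the log2 scale, and Pou3f3, at no more than 0.734 CPM, by 2.09. Pou3f2 (1.44), Sox1 (0.48) and Pou2f1 (-0.05) were not called. Among SALL and TRIM genes, Sall3 rose by 1.95, Trim2 by 1.21 and Sall2 by 0.86, Sall1 fell by 1.06 and Trim3 fell by 0.64 on the log2 scale, and Trim32 (0.20) was not called. Lin28b is the remaining gene. The members, these lists and the earlier results of the same data were known together, so no list is independent evidence of its direction.

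To follow the factors into cells, each cell was placed in a gate by markers other than the 8 genes. A cell joined the list of which it held the largest share of markers, with at least 3 of them at 1 UMI or more. Of 11 gates, 3 had at least 20 cells in every library, namely ESC-like (20 and 172 cells in WT, 662 and 709 in LSD1KO), primitive streak-like (135 and 364 against 1097 and 133) and neuron-like (58 and 104 against 1922 and 976), each as replicate 1 and replicate 2. A further 6 gates reached 20 cells in both WT libraries and not in both LSD1KO libraries. Many WT cells sat at the minimum of 3 markers, namely 67.2% and 86.5% of neuron-like and 51.1% and 60.7% of streak-like cells in replicates 1 and 2, against 28.9% and 22.4% and 13.4% and 10.5% in LSD1KO. The ESC-like gate went the other way, with 15% and 12.8% of WT cells at the minimum against 29.3% and 17.9% of LSD1KO cells. Cells below the minimum in every list made up 30.4% to 56.9% of a library. These ungated cells were shallower, at medians of 3948 and 8062 UMIs in WT and 2432 and 1704.5 UMIs in LSD1KO replicates 1 and 2. Neuron-like cells had medians of 26756 and 13372 UMIs in WT and 14939 and 27875 UMIs in LSD1KO. Gates were set on cells without thinning, and the part of depth in gate membership was not tested.

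The gates were checked against their leading genes in each genotype. ESC-like cells were led by Dppa5a and Dppa3 in both. Zfp42, Klf2 and the member Utf1 were among their 10 leading genes in WT only, and Dppa2, Dppa4 and Fgf4 in LSD1KO only. Streak-like cells were led by Eomes, Fgf8 and Lhx1 in WT and by Lhx1, Mixl1 and Mesp1 in LSD1KO. Neuron-like WT cells were led by Gap43, Pim2 and Lrp2, with L1td1 and Sox2 also among their 10 leading genes, and LSD1KO ones by Tagln, Nefm and Acta2. The 10 leading genes of the LSD1KO neuron-like cells held 4 contractile genes (Tagln, Acta2, Actc1 and Cnn1) and 3 markers of the gate (Nefm, Tubb3 and Nefl), so the name neuron-like stands here for the marker rule and not for a cell type. The gate markers themselves differed in whole EBs, 6 of 7 ESC-like, 5 of 9 streak-like and all 7 neuron-like markers being higher in LSD1KO and 0 lower, also at an unadjusted p under 0.05. Over all genes tested, 22.6% were higher and 21.6% lower. A gate therefore holds cells of like marker content, not the same cell state in both genotypes, and the part of the markers' own rise in the results below was not tested.

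In WT EBs Pou5f1, Nanog, Utf1 and L1td1 were highest in ESC-like cells, followed by neuron-like cells, among the 9 gates measured in both WT libraries. These levels are plain CPM without TMM factors. Pou5f1 was at 112 and 113 CPM in ESC-like cells of WT replicates 1 and 2, at 23.4 and 38.0 CPM in neuron-like cells, at 5.41 and 5.80 CPM in streak-like cells and at no more than 3.21 CPM in the other 6 gates. The first 3 levels separate, and the forebrain-like, mesenchyme-like, cardiac mesoderm-like and visceral endoderm-like levels of the rest do not differ beyond their spread. Nanog followed the same order with 128 and 162, 14.4 and 25.1, and 6.85 and 7.65 CPM, and at most 2.97 CPM elsewhere. Utf1 was at 360 and 363 CPM in ESC-like and at 42.7 and 70.3 CPM in neuron-like cells, and streak-like cells (5.05 and 1.62 CPM) did not stand above the other gates, which reached 3.63 CPM. L1td1 was at 228 and 257 CPM in ESC-like cells, at 73.9 and 90.9 CPM in neuron-like cells and, unlike the others, at 15.4 and 11.8 CPM in visceral endoderm-like cells.

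In LSD1KO EBs these 4 genes were high in each of the 3 gates measured in both libraries. Pou5f1 was at 136 and 125 CPM in ESC-like cells of LSD1KO replicates 1 and 2, at 106 and 98.7 CPM in neuron-like cells and at 89.9 and 102 CPM in streak-like cells, and the last pair of gates overlapped. It was at 92.4 and 82.7 CPM in ungated cells. Nanog was at 80.0 and 74.1, 57.5 and 75.6, and 60.6 and 74.1 CPM in the 3 gates, with no order beyond the spread. Utf1 kept a clear order, with 184 and 262 CPM in ESC-like, 95.7 and 143 CPM in neuron-like and 27.4 and 58.9 CPM in streak-like cells, and so did L1td1, with 412 and 407, 315 and 330, and 207 and 267 CPM. In the 23 mesenchyme-like cells of LSD1KO replicate 1, the only KO library with 20 or more, Pou5f1 was at 135 CPM against 1.83 and 3.02 CPM in WT. Its lowest gate was that of the 20 neural progenitor-like cells of LSD1KO replicate 2, at 30.5 CPM.

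Sox2 had a graded order in WT, with 259 and 278 CPM in ESC-like, 108 and 123 CPM in neuron-like, 47.8 and 43.8 CPM in forebrain-like, 17.1 and 15.6 CPM in epithelial-like and 13.3 and 15.1 CPM in mesenchyme-like cells. Below these stood streak-like cells (6.49 and 12.8 CPM), cardiac mesoderm-like cells (4.62 and 6.45 CPM) and endothelial-like cells (1.49 and 1.28 CPM), while visceral endoderm-like cells (0.895 and 6.41 CPM) overlapped with both of the last. The LSD1KO libraries had 46.3 and 69.0 CPM in ESC-like, 23.8 and 48.6 CPM in neuron-like and 15.1 and 23.9 CPM in streak-like cells. So the 2 highest gates of WT were lower in LSD1KO, and streak-like cells were not.

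Lin28a, Sall4 and Trim71 were present in all 9 gates of WT. Lin28a ranged from 57.0 and 60.9 CPM in endothelial-like and 62.0 and 75.3 CPM in ESC-like cells to 191 and 192 CPM in visceral endoderm-like cells, which overlapped with forebrain-like cells. In WT, ESC-like cells were therefore near the bottom for Lin28a and at the top for Pou5f1, Nanog, Sox2, Utf1 and L1td1. Sall4 ranged from 38.0 and 40.4 CPM in endothelial-like cells to 155 and 182 CPM in streak-like and 174 and 166 CPM in visceral endoderm-like cells, which overlapped. Trim71 was higher in WT replicate 1 than in WT replicate 2 in all 9 gates, as with 163 against 78.6 CPM in ESC-like and 158 against 74.0 CPM in cardiac mesoderm-like cells. In LSD1KO cells these 3 genes had levels of 63.0 to 151 CPM across the 3 gates.

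**Figure D2:**
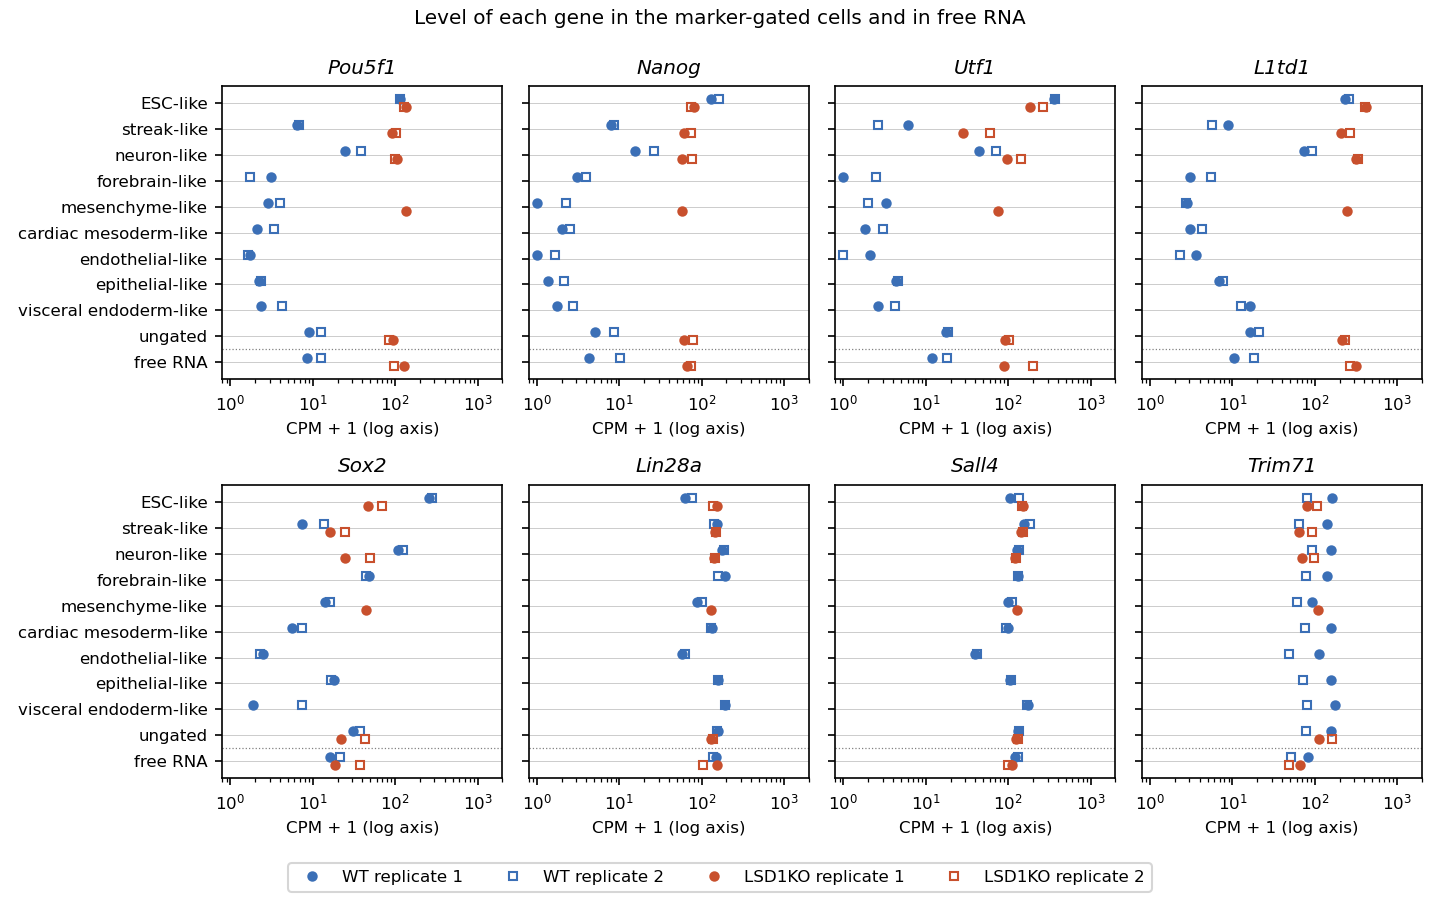
Level of each gene (CPM + 1, log axis) in marker-gated cells with at least 20 cells per library, in ungated cells and in free RNA; blue is WT and red LSD1KO, filled points replicate 1 and open points replicate 2. For Pou5f1, Nanog, Utf1 and L1td1 the WT points spread over gates while the LSD1KO points stay high in each, and Lin28a, Sall4 and Trim71 are broad in both.

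Free RNA was measured in barcodes with fewer than 100 UMIs. Pou5f1 was at 7.44 and 11.6 CPM there in WT and at 127 and 97.1 CPM in LSD1KO replicates 1 and 2, which is close to the level of LSD1KO cells. Nanog was at 64.8 and 73.2 CPM, Utf1 at 86.8 and 200 CPM and L1td1 at 315 and 265 CPM in LSD1KO free RNA. These values give the makeup of the free RNA and not its amount in a cell, and its part in the levels of LSD1KO cells was not tested.

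The part of these transcripts that lay in ESC-like cells differed between libraries and genes. Of all Pou5f1 UMIs in kept cells, 10.2% and 30.4% lay in ESC-like cells of WT replicates 1 and 2, which were 0.455% and 2.52% of the cells. In LSD1KO replicates 1 and 2 they held 17.4% and 35.9% of Pou5f1 UMIs and were 11.6% and 23.3% of the cells. Nanog gave 17.1% and 46.9% in WT against 17.3% and 29.3% in LSD1KO, Utf1 16.5% and 48.9% against 26.5% and 45.7%, and L1td1 8.16% and 35.6% against 18.9% and 35.5%. The largest part was thus that of Utf1 in WT replicate 2. When ESC-like cells were taken out of every library, an alternative chosen after seeing the data, Pou5f1 (3.83), Nanog (3.86), Utf1 (3.29) and L1td1 (4.39) had larger log2 fold changes than in all cells and all passed the test, whereas Sox2 was at 0.39 (adjusted p = 0.454).

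Within gates the same test was run on sums over the gate's cells, with CPM scaled by the TMM factors of that gate. In streak-like cells, 4 of 8 genes were higher and 1 lower, where 19.5% of 12110 genes were higher and 17.9% lower. Pou5f1 was at 5.64 and 6.26 CPM in WT and at 84.6 and 97.6 CPM in LSD1KO, a log2 fold change of 3.91 (SE 0.17, adjusted p = 3.35e-07). L1td1 went from 8.27 and 5.01 CPM to 195 and 256 CPM, a log2 fold change of 5.14 (SE 0.22, adjusted p = 2.93e-07). Both changes are large, and no replicate of one genotype overlapped with the other. The WT side rests on few UMIs, with 15 and 25 for Pou5f1 and 22 and 20 for L1td1 in replicates 1 and 2. Nanog (19 and 33) and Utf1 (14 and 7), given next, rest on few WT UMIs too. Plain WT levels of Pou5f1 (5.41 and 5.80 CPM) lay below those in WT free RNA (7.44 and 11.6 CPM). Those of L1td1 (7.93 and 4.64 CPM) did so too (9.50 and 17.2 CPM). The size of these fold changes therefore depends on a WT level near the floor.

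Nanog went from 7.14 and 8.26 CPM to 57.0 and 71.0 CPM in streak-like cells (log2 fold change 3.01, SE 0.19, adjusted p = 3.14e-06). Utf1 went from 5.26 and 1.75 CPM to 25.8 and 56.4 CPM (3.59, SE 0.51, adjusted p = 0.000439), with 4.43 on leaving out WT replicate 1 and 2.86 on leaving out WT replicate 2. Sall4 was lower in LSD1KO streak-like cells, at 161 and 196 against 134 and 144 CPM (log2 fold change -0.37, SE 0.12, adjusted p = 0.0281). Sall4 no longer passed without WT replicate 2 (-0.22, adjusted p = 0.210), without LSD1KO replicate 1 (adjusted p = 0.262), without LSD1KO replicate 2 (0.152), with library totals alone and with DESeq2. Sox2 (0.70, adjusted p = 0.120), Lin28a (-0.17) and Trim71 (-0.55, adjusted p = 0.162) were not called.

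ESC-like cells showed another pattern, with WT replicate 1 resting on 20 cells. There, 2 of 8 genes were higher and 3 lower in LSD1KO, beside 16.2% and 14% of 12855 genes. Pou5f1 was at 105 and 118 CPM in WT and at 137 and 128 CPM in LSD1KO (log2 fold change 0.19, SE 0.13, adjusted p = 0.300). Sox2 was at 244 and 290 CPM in WT and at 46.7 and 70.5 CPM in LSD1KO (-2.22, SE 0.16, adjusted p = 5.42e-10). The lower Sox2 held without each library in turn, from -1.94 to -2.54. Pou5f1 was thus not called where Sox2 was lower, and the difference between the 2 genes was not tested. Other markers also differed in this gate, Dppa5a being at 3729 and 3869 CPM in WT against 1349 and 1544 CPM in LSD1KO, and Nefm at no more than 1.41 CPM against 33.0 and 24.4 CPM, and their part in these results was not tested.

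Nanog was also lower, at 120 and 169 against 80.8 and 75.7 CPM (log2 fold change -1.02, SE 0.14, adjusted p = 5.08e-06), but without WT replicate 2, which leaves 20 WT cells, it was at -0.60 (adjusted p = 0.173). Utf1 was at 338 and 379 against 185 and 267 CPM (-0.69, adjusted p = 0.00130), and lost its call without WT replicate 2 (adjusted p = 0.347) or without LSD1KO replicate 1 (adjusted p = 0.271). L1td1 was higher, at 214 and 268 CPM against 416 CPM in both LSD1KO libraries (0.71, SE 0.13, adjusted p = 0.000267). Lin28a was higher too, at 58.2 and 78.6 against 152 and 140 CPM (0.96, SE 0.15, adjusted p = 3.79e-05). Both kept their calls without each library. Sall4 (0.20, adjusted p = 0.287) and Trim71 (153 and 82.1 against 81.0 and 108 CPM) were not called.

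In neuron-like cells, 3 of 8 genes were higher and 2 lower, beside 6.78% and 5.79% of 14197 genes. Pou5f1 was at 23.5 and 39.7 CPM in WT and at 104 and 96.6 CPM in LSD1KO (log2 fold change 1.68, SE 0.20, adjusted p = 0.00442), Nanog rose by 1.69 (adjusted p = 0.0102) and L1td1 by 1.90 (adjusted p = 0.00103). Utf1 was at 42.8 and 73.4 against 93.7 and 140 CPM and just missed the threshold (1.02, adjusted p = 0.0545). Sox2 was at 109 and 128 CPM in WT and at 23.3 and 47.6 CPM in LSD1KO (-1.74, SE 0.32, adjusted p = 0.0182), which did not pass without WT replicate 1 (adjusted p = 0.0639) or WT replicate 2 (0.0683). Lin28a (-0.41, adjusted p = 0.0491) lost its call when any one library was left out (adjusted p = 0.0669 to 0.190) and with library totals, and Sall4 (-0.15) and Trim71 (-0.63, adjusted p = 0.140) were not called.

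**Figure D3:**
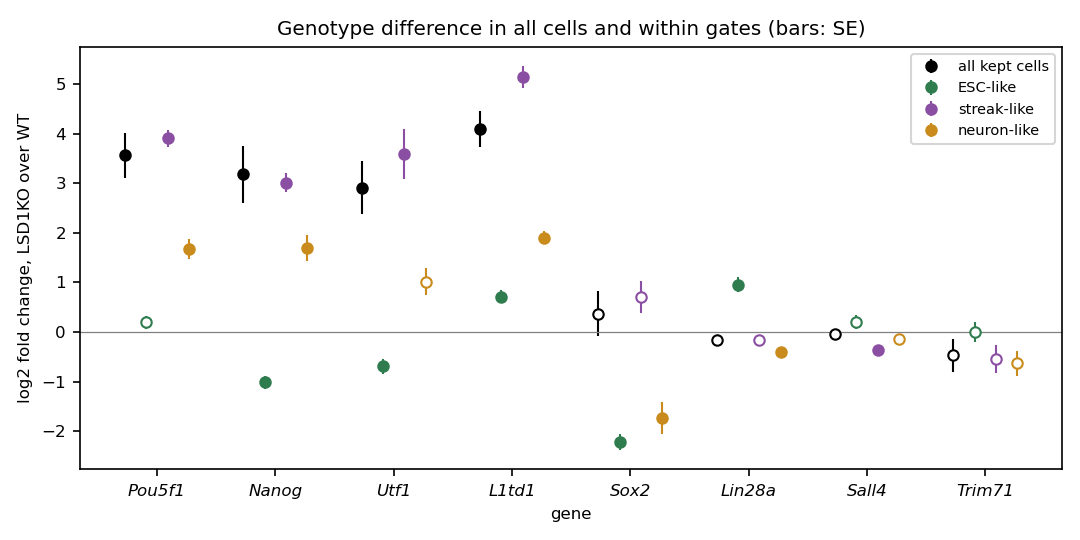
Log2 fold change of LSD1KO over WT, with its SE as a bar, for each gene in all kept cells (black) and in ESC-like (green), streak-like (purple) and neuron-like (ochre) cells; filled points passed an adjusted p of 0.05 in edgeR's quasi-likelihood test. Pou5f1, Utf1 and L1td1 change most in streak-like cells and Nanog in all cells (3.17 against 3.01 in streak-like cells), and Sox2 is called lower in ESC-like and neuron-like cells and not called in all cells.

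Whether the genotype effect differed between gates was tested in one edgeR model over the 12 gate sums, with the library as a term, a test added after seeing the data. From ESC-like to streak-like cells the effect changed for 7 of 8 genes, beside 19.6% of 13210 genes. It was larger by 4.39 for L1td1 (SE 0.24, adjusted p = 6.34e-09), by 3.95 for Nanog, by 3.62 for Pou5f1 and by 3.0 for Sox2 on the log2 scale. From ESC-like to neuron-like cells it changed for 6 of 8, beside 13.9%, and the difference for Sox2 (0.39, SE 0.18, adjusted p = 0.164) did not pass. From streak-like to neuron-like cells it changed for 5 of 8, beside 6.3%, the most for L1td1 (-3.26, SE 0.26, adjusted p = 5.10e-06). The log2 fold changes of the 4 genes that rose were thus larger in streak-like than in neuron-like cells. Nanog passed only with both WT libraries (-1.59 without WT replicate 1, -0.98 without WT replicate 2), and Utf1 did not pass without WT replicate 2 (-1.39). In WT these genes were lower in streak-like cells, with Pou5f1 at 5.41 and 5.80 against 23.4 and 38.0 CPM in neuron-like cells. Their LSD1KO levels in streak-like cells overlapped with or lay below those in neuron-like cells. Pou5f1 was at 89.9 and 102 against 106 and 98.7 CPM there.

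The share of cells with a UMI was compared after every cell was thinned to 1000 UMIs, which left out 120 to 334 shallower cells per library. Both LSD1KO libraries were above both WT libraries for 5 of 8 genes and below for 1, and over all 18454 genes this was so for 37.7% and 19.8%. L1td1 was seen in 0.930% and 1.68% of cells in WT and in 21.1% and 24.4% in LSD1KO replicates 1 and 2. Pou5f1 was seen in 0.501% and 1.03% against 9.48% and 8.58% of cells, Nanog in 0.238% and 0.909% against 5.62% and 7.09%, and Utf1 in 0.835% and 1.86% against 8.15% and 12.9%. With 2 libraries per genotype the two-sided exact permutation test cannot go below p = 0.333, which is what each of these gave.

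Sox2 was seen in 1.62% and 2.92% of WT and 2.33% and 4.77% of LSD1KO cells, so the genotypes overlapped. Sall4 was seen in 11.1% ± 0.193 of WT and 12.6% ± 0.826 of LSD1KO cells and Lin28a in 12.8% ± 0.488 and 12.1% ± 0.0741 (SD, n = 2). The lower share of Lin28a in LSD1KO turned to a higher one at 5000 UMIs (47.7% ± 0.855 against 48.9% ± 0.00622). Trim71 shares overlapped. Without thinning, Pou5f1 was seen in 5.76% ± 2.16 of WT and 56.9% ± 3.41 of LSD1KO cells (SD, n = 2). In WT cardiac mesoderm-like cells, which should lack Pou5f1, the thinned share was 0.318% (interval 0.0656 to 0.926) in replicate 1 and 0 of 1112 cells in replicate 2, where 3 counts, the most that a count of 0 allows, would be 0.270%. So the WT shares of streak-like cells (1.48% and 0.549%, intervals from 0.180 to 5.25 and from 0.0666 to 1.97) were not separable from background at this depth.

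How many of the factors a cell held at once was counted in cells thinned to 5000 UMIs. A WT cell held a mean of 1.56 and 1.52 of the 8 genes in replicates 1 and 2 and an LSD1KO cell 2.90 and 3.35. At least 1 of Pou5f1, Nanog, Utf1 and L1td1 was seen in 7.63% and 12.9% of WT cells and in 83.5% and 86.9% of LSD1KO cells. At least 2 of those 4 were seen in 1.99% and 5.13% against 51.5% and 62.5%. For Lin28a, Sall4 and Trim71 the share of cells with at least 1 overlapped between genotypes, at 82.0% and 76.2% against 78.2% and 81.1%. In streak-like cells the share with any of the first 4 was 8.46% and 8.81% in WT and 73.5% and 82.0% in LSD1KO.

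**Figure D4:**
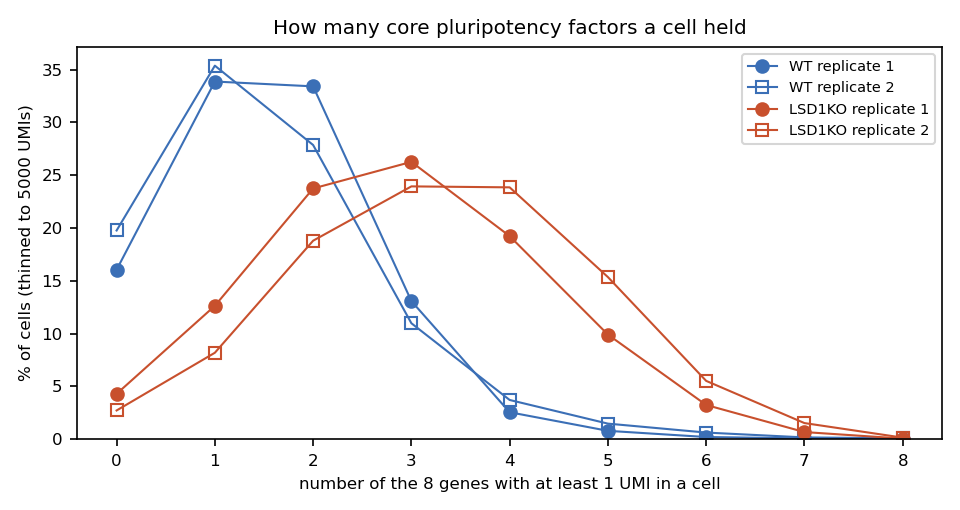
Percent of cells, each thinned to 5000 UMIs, that held 0 to 8 of the genes; blue lines are WT and red lines LSD1KO libraries, with filled points for replicate 1 and open points for replicate 2. The WT lines peak at 1 gene per cell and the LSD1KO lines at 3.

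Pou5f1 and Nanog were seen in the same cell in 0.391% (interval 0.202 to 0.682) and 1.25% (0.980 to 1.58) of WT cells and in 9.95% (9.07 to 10.9) and 11.7% (10.4 to 13.1) of LSD1KO cells. The product of the single shares, which is what cells would hold if the genes were spread without regard to each other, was 0.0275% and 0.179% in WT and 9.21% and 11.0% in LSD1KO. WT cells therefore held the pair 14.2 and 7.02 times as often as the product and LSD1KO cells 1.08 and 1.07 times. The ratio cannot exceed 1 divided by the larger single share, so it has less room where a gene is common. Pou5f1 was seen in a mean of 3.19% of WT and 37.5% of LSD1KO cells at this depth. The ratios of the genotypes can thus not be compared as strengths of joint expression, which holds for the other pairs and gates too. Over all 28 pairs of the 8 genes the highest ratio was 14.2 and 7.82 in WT and 1.41 and 1.21 in LSD1KO, and the medians were 1.09 and 1.14 against 1.06 and 1.04. Within ESC-like cells of WT replicate 2, the only WT library with over 20 such cells at this depth, the highest ratio was 1.20 and 0 of 28 pairs had an interval above the product.

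Pairs with lineage genes were counted in the same cells. Pou5f1 and Nefm, a neurofilament gene, were seen together in 0 of 3067 and 5 of 5667 WT cells, where a count of 0 allows a share of up to 0.0978%, and in 7.82% and 5.74% of LSD1KO cells. The neuron-like LSD1KO cells gave 12.5% and 7.90%, against products of 14.0% and 8.25%. Pou5f1 and Mixl1, a streak homeobox gene, were together in 0 of 3067 and 0 of 5667 WT cells, which allows up to 0.0978% and 0.0529%, and in 4.26% and 0.643% of LSD1KO cells, below the products of 5.53% and 0.834%. Pou5f1 and T, the brachyury gene, were together in 0.0978% and 0.282% of WT and 17.2% and 4.18% of LSD1KO cells. The KO libraries differ from each other in these pairs as they do in streak-like cells, which were 19.3% of LSD1KO replicate 1 and 4.37% of LSD1KO replicate 2.

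**Figure D5:**
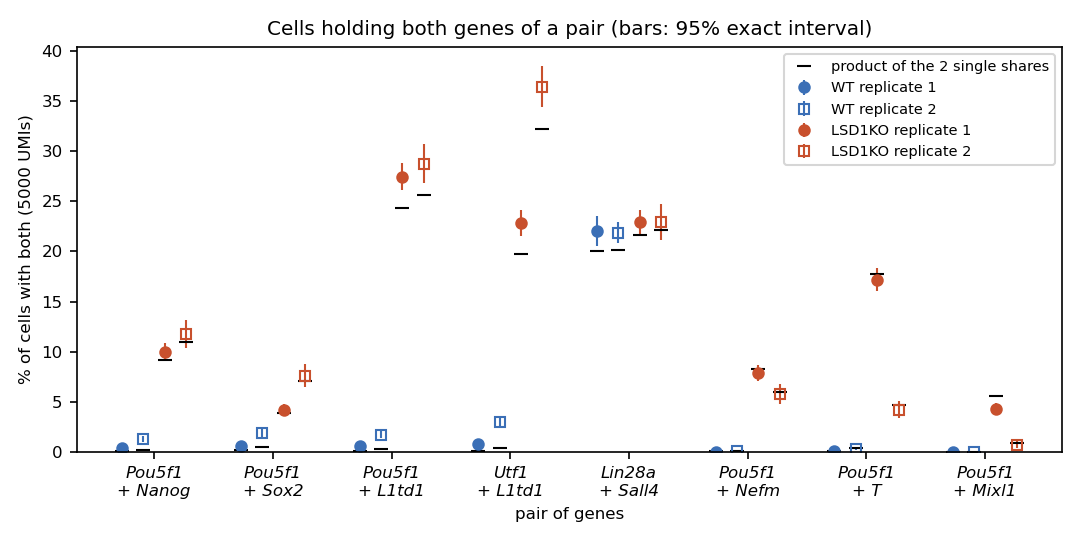
Percent of cells thinned to 5000 UMIs that held both genes of a pair, with exact 95% intervals as bars, and the product of the 2 single shares as a black dash; blue is WT and red LSD1KO, filled points replicate 1 and open points replicate 2. In LSD1KO the points of Pou5f1 with Nanog, at 9.95% and 11.7%, lie near the dash, and Lin28a with Sall4 lies between 21.9% and 22.9% in all 4 libraries.

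The pattern of each gene over the 26 gate-by-library sums was compared with all genes of at least 10 CPM on average, by Pearson's r of log2(CPM + 5), as a description, since sums of a library share its depth and composition. Pou5f1 was most like L1td1 (0.979), Nanog (0.972) and Pdzd4 (0.972), and Nanog was most like Syt9 (0.972), Pou5f1 and Itpk1 (0.970). Utf1 was most like Pdzd4 (0.969), Syt9 (0.964) and Platr22 (0.958), and L1td1 like Pou5f1, Pdzd4 (0.963) and Syt9 (0.959). So 3 of these genes have another member among their most alike genes. Sox2 stood with Enpp3 (0.946), A830018L16Rik (0.901) and Wasf3 (0.891), and its r with Pou5f1 was 0.668. Lin28a was most like Ptpn21 (0.870), Cep170b (0.848) and Lama5 (0.836), Sall4 like Bag4 (0.843), Mtmr7 (0.831) and Sorl1 (0.813), and Trim71 like Rn45s (0.768), Camk1d (0.763) and Lars2 (0.759). Lin28a and Sall4 had an r of 0.703 with each other and of -0.02 and 0.32 with Pou5f1.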

How the data were processed

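The deposited tables hold UMI counts that were neither normalized nor filtered for cells, which the authors made with Cell Ranger 7.1.0 against mm9, per the submitters' processing notes, which also name Seurat 4.3.0. Here a cell needed 500 UMIs and 500 genes, and a gene 10 such cells. UMIs were summed per library, or per library and gate, and tested with edgeR 4.0.16 (TMM, filterByExpr, quasi-likelihood F test, Benjamini-Hochberg adjustment over all genes tested) in R 4.3.3, with DESeq2 1.42.0 as an alternative. This test was first tried on simulated data with known changes. Standard errors were derived from the fold change and F statistic. Groups are the genotypes of the labels, and each library is 1 sample.

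Cells were gated by 11 marker lists without the 8 genes. Ties were left out, and the rule was set after cells had been seen. Doublets were not removed, and an alternative leaves out the 10% of cells with the most UMIs. Thinning drew UMIs without replacement with a fixed seed (numpy 2.4.6). Free RNA was summed over barcodes of fewer than 100 UMIs. Intervals came from scipy 1.17.1.

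The genes named are the 8 members, Kdm1a, up to 6 called genes with the largest change in the partner and let-7 lists, all paralogs and the 3 most alike genes of each member. Klf4, Otx2, Ncoa3, Sox2ot and Dppa5a were added after their values were seen, and the lineage genes of the pairs were chosen from the marker lists. The members and lists were chosen with earlier results of these data known. Gene positions are those of GENCODE M1 (NCBIM37, the same assembly as mm9). One item is not reported here. The p-values of the gene tests set a difference against the spread between these libraries, with each gene's spread moderated by that of all genes. Those of the model over gate sums rest on the spread left among the sums once library and gate are fitted.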

Additional observations from a re-analysis of the deposited data

Results flagged for a closer look

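In the model over the gate sums, the effect of genotype on 7 genes differed between streak-like and ESC-like cells (adjusted p under 0.05 for the difference itself, edgeR's quasi-likelihood test). As log2 fold change in streak-like minus that in ESC-like cells, the difference was 4.39 for L1td1, 4.23 for Utf1, 3.95 for Nanog, 3.62 for Pou5f1, 3.0 for Sox2, -0.64 for Sall4 and -1.13 for Lin28a. Each of these passed with library totals alone and without each library in turn.

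Between neuron-like and ESC-like cells the effect differed for 6 genes, by 2.56 for Nanog, 1.65 for Utf1, 1.35 for Pou5f1, 1.14 for L1td1, -0.43 for Sall4 and -1.37 for Lin28a. Sall4 passed with all 4 libraries and TMM factors alone (adjusted p = 0.0424), and L1td1 did not pass without WT replicate 2 (adjusted p = 0.0512).

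Between neuron-like and streak-like cells it differed for 5 genes, by -1.39 for Nanog, -2.26 for Pou5f1, -2.58 for Utf1, -2.61 for Sox2 and -3.26 for L1td1. Sox2 thus had opposite directions, 0.70 in streak-like and -1.74 in neuron-like cells, of which the first was not called. The gates' markers rise with genotype, and their part in these differences was not tested.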

How the results depend on the processing

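Among values of single genes under an alternative, 357 kept their direction and side of the threshold, 26 lost and 14 gained a call and 11 turned in direction. The 4 rises in whole EBs and the 4 in streak-like cells held under every alternative run. Turned values were all uncalled. With library totals, Sall4 was at 0.095 in whole EBs and Trim71 at 0.0079 in ESC-like cells, where a gate minimum of 2 markers gave 0.0075. On leaving out each library, whole EB values ranged from -0.12 to 0.049 for Sall4, from -0.29 to 0.96 for Sox2 and from -0.87 to 0.091 for Trim71, and Trim71 from -0.66 to 0.22 in ESC-like cells, from -1.03 to 0.039 in streak-like cells and from -0.27 to 0.043 in the neuron-like minus streak-like difference. Library totals shifted the median of all genes to 0.13 in whole EBs and 0.17 in streak-like cells. Counts of all genes higher and lower became 1819 and 1660 in whole EBs at 1000 UMIs per cell, 706 and 584 in ESC-like and 1394 and 1319 in streak-like cells with DESeq2, and 1885 and 1596 in neuron-like cells with a gate minimum of 2 markers, an alternative chosen after seeing the data. Members called lower in streak-like cells were 0 with library totals, DESeq2 or a gate minimum of 2 markers, and in neuron-like cells 1 with library totals or that minimum. On leaving out each library, all genes higher and lower ranged from 2704 to 3415 and 2295 to 3251 in whole EBs, 478 to 1988 and 330 to 1895 in ESC-like, 882 to 1762 and 792 to 1688 in streak-like and 442 to 914 and 329 to 622 in neuron-like cells, and members lower from 0 to 1, 1 to 3, 0 to 1 and 0 to 2. Members with a lower share of cells in LSD1KO were 0 at 5000 UMIs and unthinned, and 1 to 2 without each library. The cause of these changes was not tested. The rise in cells with both Pou5f1 and Nanog was 10.0 percentage points at 5000 UMIs, 0.539 at 1000 UMIs, where fewer UMIs can show a pair, and 9.13 to 10.9 without each library. The replicate block treats libraries of the same replicate number as pairs, which the labels do not state. The difference of replicate 1 minus replicate 2 correlated between the genotypes at 0.158 over 16953 genes. In edgeR's test the block gave a call to Sox2 in whole EBs (0.35, adjusted p = 0.0290) and 2 members lower in streak-like cells. It gave 1650 and 1344 genes higher and lower in neuron-like cells. A gate minimum of 4 markers left 17 ESC-like cells in WT replicate 1 (150 in WT replicate 2) and 19 and 14 neuron-like cells in WT replicates 1 and 2. Markers at 2 UMIs also left fewer than 20 ESC-like cells in a WT library. As 20 cells were needed in every library, these alternatives gave no value there. The 20 ESC-like cells of WT replicate 1 and 2 libraries per genotype limit what can be resolved.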
